A study of Mus musculus with 8 samples.

Results

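Interleukin-17 (IL-17) signalling was followed through 10 genes in mouse ear epidermis: the ligand gene Il17c, the receptor chains Il17ra, Il17rc and Il17re, the adaptor gene Traf3ip2, the regulators Nfkbiz and Zc3h12a, and the keratinocyte targets Ccl20, Steap4 and Lcn2. They were chosen by name for their place in the pathway, with earlier results of these data known. All 10 were found by Ensembl identifier among the 51633 gene identifiers with a mouse symbol. RNA was sequenced from ear epidermal sheets of 8 mice, each library from a distinct mouse, 4 labelled A20KIKO and 4 labelled A20WT. Both groups were A20F/F, that is, they carried conditional alleles of A20 (gene Tnfaip3), were 8 weeks old and received 1 mg of tamoxifen intraperitoneally on 2 consecutive days. They were killed 7 days after the first injection. The A20KIKO mice were Krt5-CreERT2+ and the A20WT mice Krt5-CreERT2-, so the tamoxifen-inducible Cre, driven by the promoter of a basal keratin gene, was itself part of the difference between the groups.

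IL-17 cytokines act on keratinocytes through paired receptor chains. IL-17RA is shared, and it pairs with IL-17RC to bind IL-17A and IL-17F, which are made by lymphocytes, or with IL-17RE to bind IL-17C, which epithelial cells make themselves. The adaptor Act1, the product of Traf3ip2, carries the signal to NF-kB and to the stabilisation of target mRNAs. A20 is an enzyme that restrains NF-kB signalling, and it is among the inhibitors of the IL-17 receptor pathway.

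Summed counts ranged from 40451075 to 89624373 per library. Levels are library-normalised read counts (CPM, scaled to each library's total and composition), and log2 changes are A20KIKO minus A20WT. The count of Tnfaip3 was 55.0 to 90.9 CPM in A20KIKO and 13.5 to 19.6 CPM in A20WT libraries. The count was thus higher in the group labelled A20KIKO, but a count over the whole gene does not test the deletion of a part of it. Groups are therefore named here by their labels. A20KIKO mouse 4 stood apart: the summed level of 18 neutrophil genes was 3032 CPM there, 52.9 to 92.9 CPM in A20KIKO mice 1 to 3 and 40.8 to 69.5 CPM in the A20WT libraries. Most of the sum in A20KIKO mouse 4 came from S100a8 (947 CPM) and S100a9 (1899 CPM), which are also listed below as keratinocyte targets of IL-17. In bulk RNA, fewer cells of a type and less RNA per cell cannot be told apart. As a check of the epidermal label, 8 basal keratinocyte markers summed to 23399 to 29054 CPM in A20KIKO and 31732 to 41837 CPM in A20WT libraries. The sums of 10 markers of dermal fibroblasts and endothelium were 17.3 to 40.5 CPM and 42.0 to 59.1 CPM. Neither sum overlapped between the groups.

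The 10 genes divided by role. The receptor chains and the adaptor, 4 genes, had log2 changes between 0.02 and 0.27, while the 5 regulators and targets had log2 changes between 1.15 and 4.67. With edgeR's quasi-likelihood test and Benjamini-Hochberg adjustment over the 16512 genes tested, 3 of the 10 rose at an adjusted p under 0.05 (Nfkbiz, Ccl20 and Steap4) and 0 fell. Over all genes tested, 3.49% changed in either direction and 2.43% rose. At an unadjusted p under 0.05, 5 of the 10 were higher and 0 lower, against 15.4% of all genes in either direction and 8.48% higher. In 5 of the 10 (Nfkbiz, Zc3h12a, Ccl20, Steap4 and Lcn2) every library labelled A20KIKO lay above every library labelled A20WT, a pattern found in 5.78% of all genes tested. The median log2 change was 1.18 over the 10 genes and -0.01 over all tested genes. Because the 10 were chosen with earlier results of these data known, these comparisons describe them and are not a test of the set. The highest library was A20KIKO mouse 4 for 7 of the 10. Without that library 4 of the 10 passed the test, Lcn2 joining the other three.

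**Figure D1:**
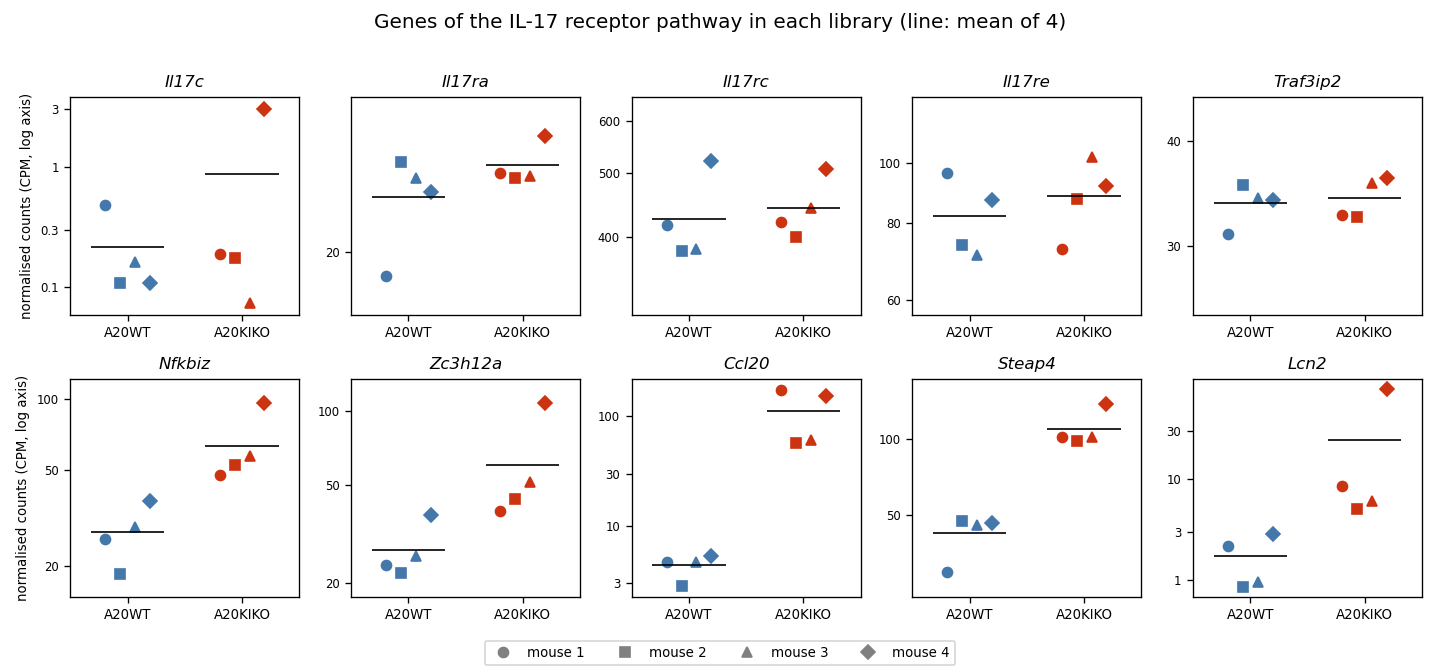
Normalised counts (CPM, log axis) of the 10 genes in each library, A20WT in blue and A20KIKO in red, with a symbol for each mouse number and a line at the mean of 4. The groups overlap for the ligand, receptor and adaptor genes of the upper row and do not overlap for the 5 genes of the lower row.

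Il17c, the epithelial IL-17 ligand gene, was below 0.5 CPM in 7 of the 8 libraries. It is encoded on chromosome 8 (122422020 to 122423639, GRCm38). Its level was 0.187, 0.173, 0.0735 and 3.02 CPM in A20KIKO mice 1 to 4 and 0.484, 0.108, 0.162 and 0.109 CPM in A20WT mice 1 to 4. A20KIKO mouse 4 was high, the other three A20KIKO libraries lay within or below the A20WT range, and the groups overlapped. The raw counts behind these levels were 16, 10, 3 and 265 in the A20KIKO libraries and 42, 6, 14 and 7 in the A20WT libraries. The log2 change of 1.99 (SE 1.13) missed the threshold (edgeR adjusted p = 0.466), and without A20KIKO mouse 4 it was -0.56 (edgeR adjusted p = 0.844).

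The lymphocyte-derived ligands were also found in that 1 mouse. Il17a (chromosome 1, 20730905 to 20734496) had 59 counts in A20KIKO mouse 4, 22 in one sequencing lane and 37 in the other, and 0 in each of the other 7 libraries. A count of 0 allows up to 3 counts in a library, or 0.0346 to 0.0735 CPM in these 7, against 0.672 CPM measured in A20KIKO mouse 4; such limits cover counting error only. Il17f, its neighbour on the same chromosome (20777146 to 20790617), had 771 counts in A20KIKO mouse 4 and 0 to 5 in the others. Neither gene passed the filter on low counts, so neither was tested, and both were singled out after their values were seen. Il22, a cytokine gene often expressed by the same lymphocytes, had 394 counts in A20KIKO mouse 4 and 0 to 16 in the others.

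The common T cell receptor subunit genes were not high in that mouse. Cd3e, a subunit of the T cell receptor complex, lay at 25.3 CPM in A20KIKO mouse 4, within the 24.7 to 31.2 CPM of the A20WT libraries, and Cd3g lay at 40.2 CPM, within 33.0 to 45.3 CPM. The sum over 16 T cell genes was nevertheless highest there, at 222 CPM, against 205 to 210 CPM in A20KIKO mice 1 to 3 and 184 to 220 CPM in the A20WT libraries, and 5 of the 16 were highest in that mouse. Of these 16, edgeR called 0 and DESeq2 1, and 5 were higher at an unadjusted p under 0.05, a threshold that 8.48% of all genes passed in this direction. The receptor gene Cd163l1 (Scart1), which marks IL-17-producing gamma delta T cells in skin, was at 2.91, 2.47, 1.76 and 13.6 CPM in A20KIKO mice 1 to 4. It lay at 0.668 to 0.991 CPM in the A20WT libraries, without overlap, and its log2 change of 2.66 (SE 0.64) missed the threshold (edgeR adjusted p = 0.0611). Its relative 5830411N06Rik (Scart2) was at 0.982, 0.623, 1.03 and 0.991 CPM in the A20KIKO libraries and 0.0691, 0.216, 0.278 and 0.217 CPM in the A20WT libraries. Here A20KIKO mouse 4 did not stand apart, and the rise passed the test (log2 change 2.21, SE 0.45, edgeR adjusted p = 0.0162), but not without A20KIKO mouse 1 (adjusted p = 0.0549). It was the 1 gene called by edgeR among 10 tested of 12 markers of IL-17-producing lymphocytes (median log2 change 0.63). Over all genes tested, 2.43% rose. DESeq2 called 2 of these markers higher and 1 lower. With edgeR the number of them called higher was 0 without A20KIKO mouse 1 or in lane 2 alone, 2 without A20KIKO mouse 4, and 3 without A20KIKO mouse 2 or mouse 3.

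**Figure D2:**
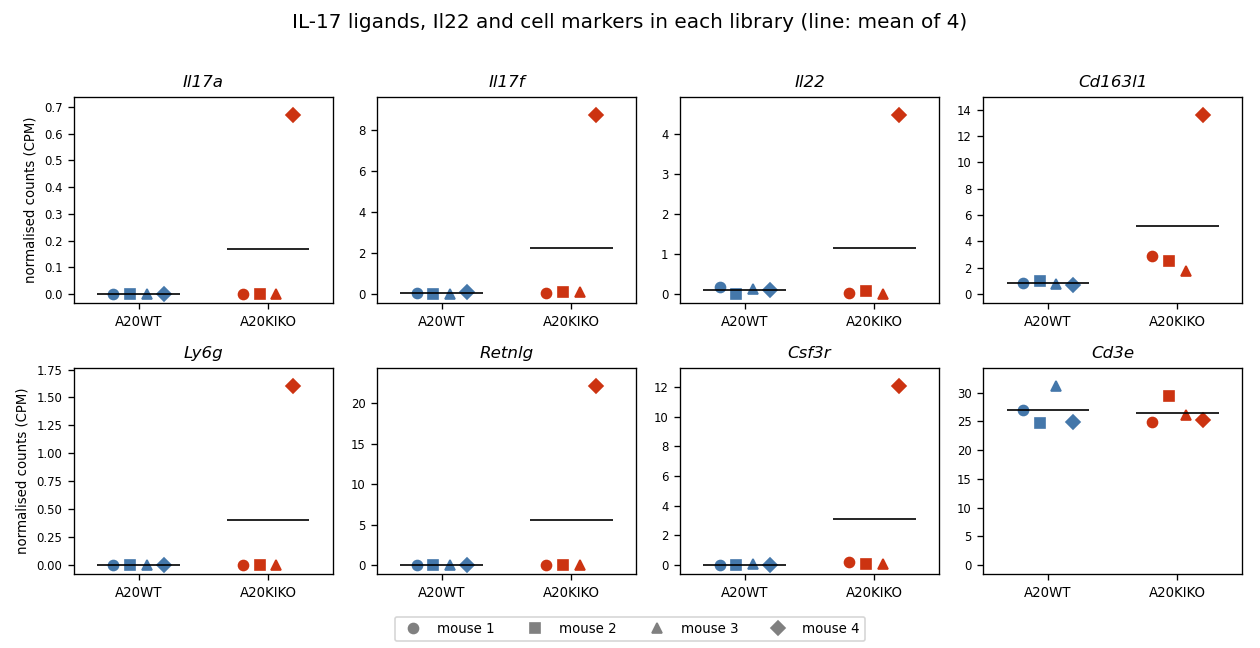
Normalised counts (CPM, linear axes starting near 0) of Il17a, Il17f, Il22, the lymphocyte marker Cd163l1, the neutrophil genes Ly6g, Retnlg and Csf3r, and the T cell gene Cd3e in each library, with a line at the mean of 4. A20KIKO mouse 4 is the highest library in every panel except that of Cd3e, where the groups overlap.

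None of the 3 receptor chain genes passed edgeR's test, and the smallest of their unadjusted p was 0.175. DESeq2 and limma-voom called none of them either. Il17ra, the shared chain (chromosome 6, 120463247 to 120487559), was at 31.6, 30.8, 31.2 and 39.4 CPM in A20KIKO mice 1 to 4 and at 17.4, 33.9, 30.9 and 28.3 CPM in A20WT mice 1 to 4. A20KIKO mouse 4 was the highest and A20WT mouse 1 the lowest, and the groups overlapped. The log2 change was 0.27 (SE 0.19, edgeR adjusted p = 0.563).

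Il17rc, the chain that pairs with IL-17RA for IL-17A and IL-17F, was the most abundant of the 10 genes per kb of exon in both groups. It lies on chromosome 6 at 113471427 to 113483140 and had 422, 400, 443 and 507 CPM in A20KIKO mice 1 to 4 and 418, 381, 383 and 521 CPM in A20WT mice 1 to 4. Mouse 4 was the highest in each group and the groups overlapped over nearly their whole range (log2 change 0.06, SE 0.13, edgeR adjusted p = 0.903). Il17re, the chain for IL-17C, is the neighbour of Il17rc (chromosome 6, 113458484 to 113470758) and shares no exon sequence with it. Its level was 72.6, 87.5, 102 and 91.7 CPM in the A20KIKO and 96.4, 73.8, 70.9 and 87.1 CPM in the A20WT libraries. The extremes of both groups lay close together, and the log2 change was 0.11 (SE 0.13, edgeR adjusted p = 0.781).

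Set against exon length, the chains were far from equal. The level of Il17rc was 166 ± 17.2 CPM per kb of exon in A20KIKO and 159 ± 24.6 in A20WT libraries (SD, n = 4 each), that of Il17re 15.1 ± 2.10 and 14.0 ± 2.03, and that of Il17ra 3.84 ± 0.48 and 3.19 ± 0.83. In each of the 8 libraries Il17rc exceeded Il17re and Il17re exceeded Il17ra, with Il17rc 36.5 to 77.9 times Il17ra and Il17re 3.21 to 8.19 times Il17ra. The exon length counts every annotated exon, and full-length coverage of each transcript was not tested. The geometric mean of the ratio of Il17rc to Il17ra was 43.2 in A20KIKO and 51.1 in A20WT libraries, that of Il17re to Il17ra 3.92 and 4.49, and that of Il17rc to Il17re 11.0 and 11.4. In two-sided exact permutation tests over the 70 possible arrangements, where the smallest p is 0.0286, these 3 ratios gave p = 0.429, 0.686 and 0.771, each 0.771 after Benjamini-Hochberg adjustment. A20WT mouse 1, the library lowest in Il17ra, had the highest ratio to Il17ra for both partner chains.

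**Figure D3:**
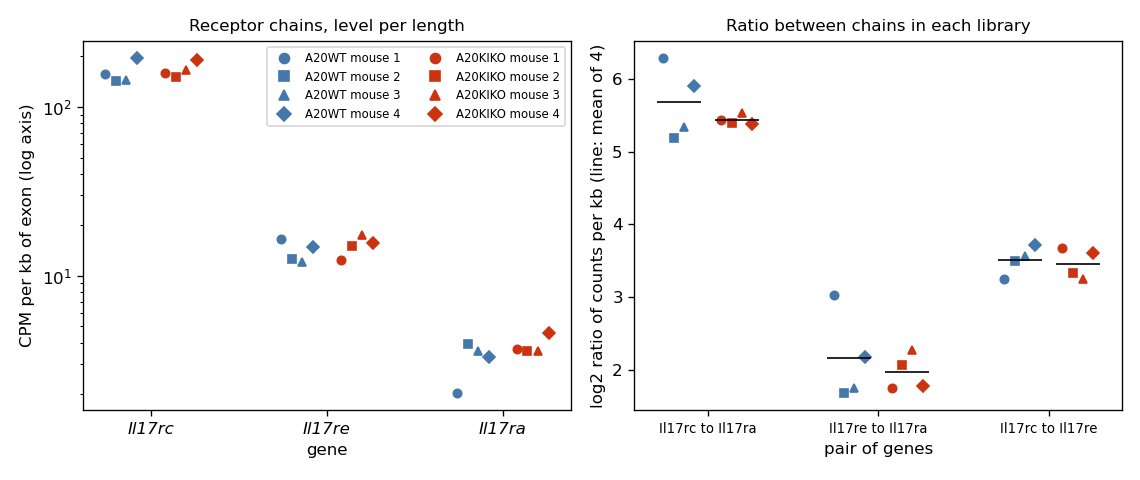
Left, level of the receptor chains in CPM per kb of exon (log axis) in each library; right, log2 ratio between chains in each library, with a line at the mean of 4. Il17rc lies at group means of 166 and 159 CPM per kb and the order Il17rc, Il17re, Il17ra holds in all 8 libraries, while the groups overlap for each chain and each ratio.

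Traf3ip2, which encodes Act1 (chromosome 10, 39612934 to 39655307), varied least of the 10 genes. Its level was 32.7, 32.5, 35.6 and 36.1 CPM in A20KIKO mice 1 to 4 and 31.0, 35.5, 34.2 and 34.1 CPM in A20WT mice 1 to 4. All 8 libraries lay within 31.0 to 36.1 CPM, a coefficient of variation of 5.25%. The log2 change was 0.02 (SE 0.11, edgeR adjusted p = 0.954). An antisense gene on the opposite strand, E130307A14Rik, covers 293 of its exon bases (7.95%). The library kit does not mark the strand, so reads from that stretch cannot be assigned to one or the other.

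Nfkbiz rose in the libraries labelled A20KIKO. It encodes IkappaB-zeta, a nuclear cofactor of NF-kB through which IL-17 induces a set of antimicrobial and chemokine genes in keratinocytes, and lies on chromosome 16 (55811375 to 55838899). Its level was 47.7, 52.7, 57.6 and 96.1 CPM in A20KIKO mice 1 to 4 and 25.8, 18.5, 29.0 and 37.3 CPM in A20WT mice 1 to 4. The groups did not overlap, and A20KIKO mouse 4 was the highest. This was a 2.30-fold difference (log2 change 1.20, SE 0.25, edgeR adjusted p = 0.0218), and 1.90-fold without A20KIKO mouse 4. The call was lost without A20WT mouse 1 (adjusted p = 0.143), mouse 2 (0.0525) or mouse 3 (0.0755).

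Zc3h12a encodes Regnase-1, an RNase that degrades mRNAs of the IL-17 response, Nfkbiz among them (chromosome 4, 125118423 to 125127840). It was at 39.3, 44.1, 51.7 and 108 CPM in A20KIKO mice 1 to 4 and at 23.7, 22.0, 25.7 and 37.8 CPM in A20WT mice 1 to 4. Every library labelled A20KIKO lay above every A20WT library, although A20KIKO mouse 1 and A20WT mouse 4 were close. The 2.22-fold difference (log2 change 1.15, SE 0.33) did not pass edgeR's test (adjusted p = 0.107) but passed that of DESeq2 (adjusted p = 0.00166). Without A20KIKO mouse 4 the log2 change was 0.72 (edgeR adjusted p = 0.0723).

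Nfkbiz and Zc3h12a followed each other across the libraries. Likeness was measured as the root mean square distance between profiles over the 8 libraries, each profile being log2 CPM minus its A20WT mean, among the 12893 genes that averaged 1 CPM or more. The gene nearest to Nfkbiz was Zc3h12a, at a distance of 0.19, followed by the glucose transporter gene Slc5a1 (0.22) and the syntaxin gene Stx11 (0.26). All of them share the same libraries and the high values of A20KIKO mouse 4, so this is a description.

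**Figure D4:**
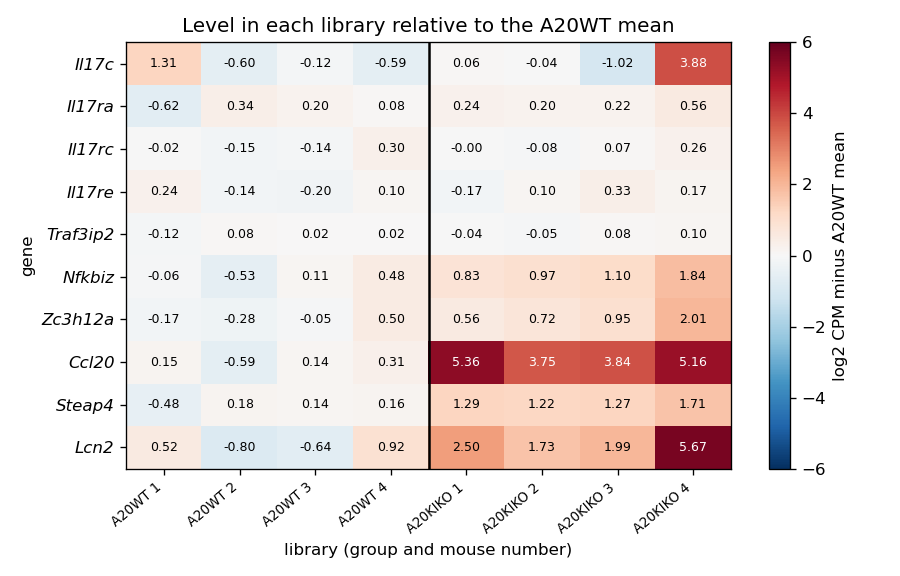
Level of the 10 genes in each library as log2 CPM minus the mean of the A20WT libraries, with the value printed in each cell, A20WT left and A20KIKO right of the line. The rows from Nfkbiz to Lcn2 are above 0 in all 4 A20KIKO libraries, and A20KIKO mouse 4 holds the highest value of Lcn2 (5.67), Il17c (3.88), Zc3h12a (2.01) and Nfkbiz (1.84).

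Ccl20 had the largest change of the 10 genes. It encodes the chemokine that attracts cells bearing CCR6, among them IL-17-producing T cells, and lies on chromosome 1 (83116766 to 83119167). Its level was 174, 57.0, 60.8 and 152 CPM in A20KIKO mice 1 to 4 and 4.68, 2.79, 4.65 and 5.23 CPM in A20WT mice 1 to 4. The lowest A20KIKO library was 10.9 times the highest A20WT library. Within A20KIKO, mice 1 and 4 were high and mice 2 and 3 low, a 3.06-fold span. The rise was 25.5-fold (log2 change 4.67, SE 0.47, edgeR adjusted p = 0.00184), and 22.3-fold without A20KIKO mouse 4. It remained called in all 17 alternative analyses, with adjusted p up to 0.0233.

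Unlike Nfkbiz and Lcn2, Ccl20 was highest in A20KIKO mouse 1, and its nearest genes were interferon-inducible. They were the chemokine gene Cxcl10 (distance 0.33), the ubiquitin-like modifier gene Isg15 (0.33) and the RNA sensor gene Dhx58 (0.36). Cxcl10 stood at 5.50, 3.77, 3.78 and 5.03 above its A20WT mean on the log2 scale in A20KIKO mice 1 to 4, against 5.36, 3.75, 3.84 and 5.16 for Ccl20. The distance includes the size of the change, so a gene with so large a rise can lie near only others with a large rise. Whether these profiles have a common source was not tested.

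The start of Ccl20 is shown because it holds, close to the gene's start, letters that match the kappaB consensus, the DNA motif bound by NF-kB. The window runs from 250 bases before to 50 after the start site in RefSeq (GRCm38.p6, chr1:83116516-83116815, plus strand), written 5′ to 3′, with the match at bases 80 to 71 upstream in capitals.
Ccl20: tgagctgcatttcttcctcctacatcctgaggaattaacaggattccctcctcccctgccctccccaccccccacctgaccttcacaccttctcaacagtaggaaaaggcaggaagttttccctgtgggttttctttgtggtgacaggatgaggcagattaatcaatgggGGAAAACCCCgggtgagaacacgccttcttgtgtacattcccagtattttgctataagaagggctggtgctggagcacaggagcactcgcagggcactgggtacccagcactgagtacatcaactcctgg
The kappaB consensus was searched on both strands and was found in 2 of the 7 genes present in the promoter table (Ccl20 and Steap4) and in 8.46% of all 32851 windows. Il17ra, Traf3ip2 and Nfkbiz had no window and were not searched. The AP-1 motif TGANTCA was found in 0 of the 7 and in 7.81% of all windows. A match is a description of these letters and not a site of binding, and the absence of one covers this window alone.

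Steap4 had the most even rise. It encodes a metalloreductase of iron and copper that IL-17 induces in epithelial cells (chromosome 5, 7960457 to 7982213). Its level was 102, 97.8, 101 and 137 CPM in A20KIKO mice 1 to 4 and 29.9, 47.5, 46.0 and 46.9 CPM in A20WT mice 1 to 4. The groups did not overlap, A20KIKO mice 1 to 3 lay within 97.8 to 102 CPM, and A20KIKO mouse 4 and A20WT mouse 1 stood above and below the others of their groups. The rise was 2.57-fold (log2 change 1.36, SE 0.17, edgeR adjusted p = 0.00114), and 2.36-fold without A20KIKO mouse 4. It too remained called in all 17 alternatives, with adjusted p up to 0.00637. The nearest profiles were those of the TNF receptor gene Tnfrsf1b (distance 0.15), the calcium channel gene Orai2 (0.18) and the retinol dehydrogenase gene Rdh16 (0.20).

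The Steap4 window is shown for its pair of kappaB matches, at bases 250 to 241 and 226 to 217 upstream of the start site, and a match to the C/EBP motif TTGCNNAA at bases 87 to 80. The C/EBP family includes factors that IL-17 induces. The window is chr5:7960222-7960521 on the plus strand of GRCm38.p6 in RefSeq, with the matches in capitals.
Steap4: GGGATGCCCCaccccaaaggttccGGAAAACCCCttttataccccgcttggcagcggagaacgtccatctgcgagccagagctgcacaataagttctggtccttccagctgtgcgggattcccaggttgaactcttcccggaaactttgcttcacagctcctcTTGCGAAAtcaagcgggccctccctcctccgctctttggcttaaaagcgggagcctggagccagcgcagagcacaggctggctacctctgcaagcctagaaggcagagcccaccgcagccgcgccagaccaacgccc
The second kappaB match of Steap4 and that of Ccl20 are the same letters, GGAAAACCCC. The C/EBP motif, searched on both strands, was found in 2 of the 7 genes (Steap4 and Lcn2) and in 10.8% of all windows.

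Lcn2 was raised in all 4 libraries labelled A20KIKO, but by very different amounts. It encodes lipocalin-2, which withholds iron from bacteria and is made by stimulated keratinocytes and by neutrophils (chromosome 2, 32384633 to 32388252). Its level was 8.61, 5.04, 6.03 and 77.8 CPM in A20KIKO mice 1 to 4 and 2.17, 0.847, 0.951 and 2.86 CPM in A20WT mice 1 to 4. The groups did not overlap, and A20KIKO mouse 4 held 11.9 times the mean of A20KIKO mice 1 to 3. Over all libraries the difference of 14.3-fold (log2 change 3.84, SE 1.18) missed the threshold (edgeR adjusted p = 0.182). Without A20KIKO mouse 4 it was 3.84-fold (log2 change 1.94) and passed (edgeR adjusted p = 0.021).

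Many neutrophil markers were high in A20KIKO mouse 4, as Lcn2 was. Ly6g, a surface marker of neutrophils, had 141 counts in A20KIKO mouse 4 and 0 in the other 7 libraries. Retnlg had 1948 counts there, and 0 or 1 in each of the others. Csf3r, the receptor for the neutrophil growth factor G-CSF, was at 12.1 CPM against 0 to 0.187 CPM, and Csf3, which encodes that factor, at 3.78 CPM against 0 to 0.0468 CPM. Of the 18 neutrophil genes, 13 were highest in A20KIKO mouse 4, among them Mmp9, at 82.8 CPM against 25.5 to 34.7 CPM in the other libraries, and Cxcr2, at 48.6 against 3.30 to 13.0 CPM. Mpo, Camp, Prtn3 and Ctsg were higher elsewhere, at 0.245 CPM or less, and Elane, an elastase of neutrophil precursors, was at 0 in all 8 libraries. Of the 5 tested, 0 passed with edgeR, DESeq2 or limma-voom and 1 was higher at an unadjusted p under 0.05. The median of their log2 changes was 1.17, or 0.24 with A20KIKO mouse 4 left out. With no count filter it was 4.31 over 17 genes, several of them at or near 0 in A20WT. In A20KIKO mice 1 to 3 Lcn2 was at 5.04 to 8.61 CPM, above every A20WT library. The 18 neutrophil genes summed to 52.9 to 92.9 CPM in those mice and to 40.8 to 69.5 CPM in the A20WT libraries. The part of these genes' cells in the level of Lcn2 was not tested in any library. These neutrophil genes, apart from S100a8 and S100a9, were named after their values were seen.

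The Lcn2 window is shown for its C/EBP match at bases 216 to 209 upstream of the start site, in capitals, and holds no kappaB match within these letters. It is chr2:32387690-32387989 on the minus strand of GRCm38.p6 in RefSeq.
Lcn2: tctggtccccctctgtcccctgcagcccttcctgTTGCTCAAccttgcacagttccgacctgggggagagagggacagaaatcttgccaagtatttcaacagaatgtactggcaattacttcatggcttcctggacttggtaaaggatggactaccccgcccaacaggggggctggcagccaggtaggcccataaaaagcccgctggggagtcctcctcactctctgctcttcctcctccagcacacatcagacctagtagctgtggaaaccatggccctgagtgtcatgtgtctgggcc
The profiles nearest to Lcn2 were farther away than those of the other genes: the serpin gene Serpinb3a (distance 0.57), the neutrophil chemokine gene Cxcl1 (0.61) and the fetuin gene Fetub (0.70).

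**Figure D5:**
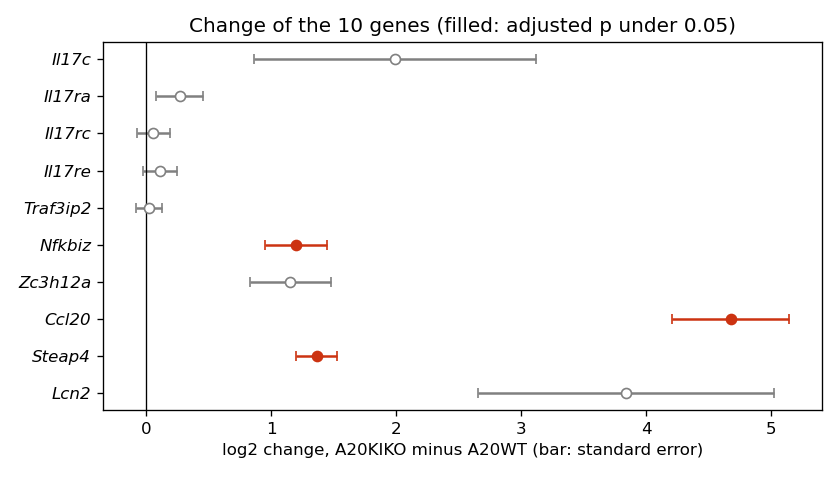
Log2 change of the 10 genes, A20KIKO minus A20WT, with its standard error. Filled points mark the 3 genes with an adjusted p under 0.05 (Nfkbiz, Ccl20 and Steap4); the wide bars of Il17c and Lcn2 go with the single high value of A20KIKO mouse 4.

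Levels per kb of exon placed the 10 genes in a different order in the groups. In the A20WT libraries Il17rc (159 CPM per kb) was followed by Il17re (14.0), Steap4 (13.5), Zc3h12a (9.47), Traf3ip2 (9.14), Nfkbiz (5.51), Il17ra (3.19), Ccl20 (3.05), Lcn2 (0.65) and Il17c (0.30). The ranges over 4 libraries overlapped between neighbours in this order, except between Il17rc and Il17re, Traf3ip2 and Nfkbiz, and Ccl20 and Lcn2. In the A20KIKO libraries Il17rc (166 CPM per kb) was followed by Ccl20 (78.1), Steap4 (34.7), Zc3h12a (21.1), Il17re (15.1), Nfkbiz (12.7), Lcn2 (9.29), Traf3ip2 (9.28), Il17ra (3.84) and Il17c (1.20). Neighbours overlapped except Il17rc with Ccl20 and Traf3ip2 with Il17ra. The place of Lcn2 came from A20KIKO mouse 4, at 29.6 CPM per kb, since mice 1 to 3 had 1.92 to 3.28, below Traf3ip2 and Il17ra in each of them. Il17c was likewise at 4.20 CPM per kb in mouse 4 and 0.102 to 0.260 in mice 1 to 3. Ccl20 thus stood eighth in one group and second in the other, while the receptor chains and the adaptor kept their order among themselves.

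Other genes of the pathway were read from lists. Among 7 further IL-17 cytokine and receptor chain genes, 3 were tested and 0 passed with edgeR, DESeq2 or limma-voom. The median log2 change was -0.33 over these 3 and 1.03 over all 7 with no count filter. At an unadjusted p under 0.05, 1 was higher and 1 lower. Il17rb, the receptor chain for IL-25, lay at 5.94 to 6.46 CPM in the A20KIKO and 7.13 to 8.29 CPM in the A20WT libraries without overlap (log2 change -0.33, SE 0.14, edgeR adjusted p = 0.27). For Il17d the log2 change was -0.72 with an SE of 0.36 (edgeR adjusted p = 0.387).

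Over all genes tested, 2.43% rose at edgeR's adjusted p under 0.05. Of 20 signalling intermediates, 3 rose and 0 fell, with a median log2 change of 0.09. Besides Tnfaip3 (log2 change 2.16, SE 0.18, edgeR adjusted p = 8.36e-05) these were Ikbke, a kinase that phosphorylates Act1 (0.87, SE 0.13, adjusted p = 0.00292), and Tnip1, an A20-binding inhibitor of NF-kB (0.68, SE 0.13, adjusted p = 0.0136). Tnip1 was not called without A20KIKO mouse 1 (adjusted p = 0.0517) or A20WT mouse 3 (0.0522). DESeq2 called 4 of the 20 higher, and 5 were higher and 0 lower at edgeR's unadjusted p under 0.05. Of 25 transcription factor and mRNA regulator genes, 2 rose and 0 fell, with a median log2 change of 0.12. Both encode NF-kB subunits of the non-canonical branch. Relb was at 68.1, 69.4, 75.4 and 81.0 CPM in A20KIKO mice 1 to 4 and 38.7, 37.9, 37.2 and 43.2 CPM in A20WT mice 1 to 4, with no overlap (log2 change 0.90, SE 0.11, edgeR adjusted p = 0.00107). For Nfkb2 the log2 change was 0.84 with an SE of 0.16 (edgeR adjusted p = 0.0119). Without A20KIKO mouse 2, 4 genes of this list rose, and DESeq2 called 6 higher. At edgeR's unadjusted p under 0.05, 6 of the 25 were higher and 1 lower, where 8.48% of all genes were higher.

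Of 31 further keratinocyte targets of IL-17, 26 were tested. Where 2.43% of all genes tested rose, 3 of these targets rose and 0 fell. They were Cxcl16, a transmembrane chemokine (59.2 ± 5.66 to 123 ± 20.3 CPM, SD, n = 4 each; log2 change 1.05, SE 0.13, edgeR adjusted p = 0.00139), Pglyrp3, a peptidoglycan recognition protein (log2 change 1.46, SE 0.26, adjusted p = 0.0102), and Cxcl1. Cxcl1 was at 8.06, 6.47, 4.41 and 21.3 CPM in A20KIKO mice 1 to 4 and 1.54, 0.577, 0.649 and 1.41 CPM in A20WT mice 1 to 4, without overlap (log2 change 3.26, SE 0.57, edgeR adjusted p = 0.0151). Cxcl1 was not called without A20WT mouse 1 (adjusted p = 0.0644), mouse 2 (0.0763) or mouse 3 (0.0696), nor Pglyrp3 without A20WT mouse 1 (0.087) or mouse 2 (0.0606). Cxcl16 was called whichever library was left out. The median log2 change of the 26 was 1.86, and 0.22 over the 24 tested without A20KIKO mouse 4. That mouse was the highest library for 25 of the 31 genes. S100a8, which keratinocytes and neutrophils express, was at 947 CPM there and 2.70 to 18.6 CPM in A20KIKO mice 1 to 3, against 0.396 to 8.32 CPM in the A20WT libraries. S100a9 reached 1899 CPM there, against 10.4 to 29.8 CPM in the other three and 1.86 to 18.0 CPM in A20WT. The groups overlapped for both, and neither passed the test (edgeR adjusted p = 0.329 and 0.324). Of 9 genes for cytokines that drive IL-17-producing lymphocytes, 8 were tested, with a median log2 change of 0.20. None passed with edgeR or limma-voom, where 1 was higher and 2 were lower at edgeR's unadjusted p under 0.05, and DESeq2 called 1 higher.

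Markers of other cell types also differed between the groups that these levels come from, and their part in the results was not tested. Of all 16512 genes tested, edgeR called 401 (2.43%) higher and 175 lower. At its unadjusted p under 0.05, 8.48% were higher and 15.4% changed in either direction. Of 16 monocyte and macrophage genes, 11 were tested and 4 rose (Ly6c2, C1qa, C1qb and C1qc), with a median log2 change of 2.04, and 9 of 15 tested rose without A20KIKO mouse 2. C1qa, a complement gene of macrophages, lay at 3.82 to 8.78 CPM in the A20KIKO and 1.12 to 2.02 CPM in the A20WT libraries (log2 change 2.19, SE 0.29, edgeR adjusted p = 0.00184). The summed level of the 16 was 111 to 156 CPM in A20KIKO and 62.5 to 108 CPM in A20WT, without A20KIKO mouse 4 standing apart at 151 CPM. Of 6 melanocyte genes edgeR called 0, with 4 higher at an unadjusted p under 0.05, and DESeq2 called 3 higher. The median of their log2 changes was 1.29. With A20KIKO mouse 4 left out edgeR called 5 higher. They summed to 94.7 to 224 CPM in A20KIKO mice 1 to 3 and to 47.2 CPM in the fourth mouse, against 42.6 to 58.6 CPM in A20WT. Of 10 dermal fibroblast and endothelial genes 8 were tested (median log2 change -0.86). EdgeR called 0 of them, with 4 lower at an unadjusted p under 0.05, limma-voom 2 lower and DESeq2 3 lower. EdgeR called 3 lower without A20KIKO mouse 2 and 2 lower without A20KIKO mouse 3. Among 8 basal keratinocyte genes 1 fell, Krt5, the gene whose promoter drives the Cre, from 5574 to 6870 CPM in A20WT to 3354 to 3637 CPM in A20KIKO libraries. Its log2 change was -0.83 with an SE of 0.12 (edgeR adjusted p = 0.00272). Of 10 genes on the Langerhans cell list 1 fell, Il34, called whichever library was left out (edgeR adjusted p up to 0.0205). The median log2 change of that list was 0.16, and DESeq2 called 1 of its genes higher and 1 lower. Its summed level overlapped between the groups, at 3224 to 3570 CPM in A20KIKO and 2723 to 3568 CPM in A20WT libraries. The fall of Il34 thus does not describe the list as a whole. Of 9 mast cell and basophil genes 1 was tested, Hdc (log2 change 5.77, or 2.76 without A20KIKO mouse 4), called only with non-robust dispersions. Among 10 genes of differentiated keratinocytes 1 fell, the filaggrin relative Flg2 (log2 change -0.90, SE 0.20, edgeR adjusted p = 0.0292), a call lost without A20KIKO mouse 3 (adjusted p = 0.0753) or A20WT mouse 1, 2 or 3 (0.0979 to 0.123).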

How the data were processed

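The deposited files hold raw counts per Ensembl mouse gene for 8 libraries, in 2 lane columns each, which were summed. Per the submitters' processing notes, the builds were GRCm38.p5 and GRCh38 and the tools STAR 2.4.2a, Picard 1.139 and HTSeq 0.6.1p1, with no role stated. Counting options, read filters and the annotation release were not stated in the sources used here. Libraries were made, per the labels' protocols, with SMART-Seq v4 from poly-adenylated RNA and Nextera tagmentation. This chemistry marks neither strand nor molecules, and whether PCR copies were removed before counting was not stated.

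The summed counts were fitted with edgeR 4.0.16 in R 4.3.3 (filterByExpr, minimum count 10 and total 15; TMM scaling; quasi-likelihood test, two-sided, robust dispersions, group as the only term). This left 16512 genes, and a gene was called changed at an adjusted p under 0.05. The SE was taken from the test, as the size of the log2 change over the root of its F statistic. Symbols, positions and exon lengths came from GENCODE M21 (GRCm38), and promoter windows from RefSeq (GRCm38.p6), where 7 of the 10 genes matched. Alternatives were other size factors, no filter or 5 CPM in 4 libraries, DESeq2 1.42.0, limma-voom (limma 3.58.1), non-robust dispersions, a replicate block, each lane alone and each library left out. The method was checked on simulated counts, where it recovered 8.96% of 1.5-fold, 56.7% of 2-fold and 89.1% of 4-fold changes. Of its 110 calls there, 9 were of unchanged genes. A gene not called may therefore still differ, even by 4-fold. The simulated counts held no library made to stand apart as A20KIKO mouse 4 did. Lcn2, for which it did, was not called at a 14.3-fold difference. Plots were drawn with Matplotlib 3.10.9 in Python 3.11.15 (NumPy 2.4.6, pandas 2.3.3).

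The 10 genes and the lists were chosen with earlier results of these data known. All 10 were named in every library. Of each list, up to 3 called genes with the smallest adjusted p were picked, or else up to 2 tested genes with the highest mean. Il18, Il1a, Dcn, Col1a2, Pmel and Dct also met this rule, and their values are not given above. For Ccl20, Nfkbiz, Steap4 and Lcn2 the 3 nearest profiles were named (log2 CPM at a prior count of 2). Genes named outside this rule are Cd163l1, Il22, Csf3, Ly6c2 and those marked in the text as chosen after their values were seen.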

Additional observations from a re-analysis of the deposited data

Results flagged for a closer look

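Among the 10 genes and 3 receptor ratios, each group of 4 libraries was examined for 1 library whose gap to the nearest other library took up most of the group's range (Dixon's criterion), 26 groups in all. Chance gives such a library in about 1 in 20 groups only where groups are independent and values normally distributed. The 26 groups share the same 8 libraries, so their number does not measure chance. Such a library was found in 6 groups. In 4 of them the library was A20KIKO mouse 4, the highest of its group, with 3.02 CPM of Il17c, 39.4 CPM of Il17ra, 137 CPM of Steap4 and 77.8 CPM of Lcn2. In the other two it was A20WT mouse 1, with 0.484 CPM of Il17c, the highest of its group, and 29.9 CPM of Steap4, the lowest.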

How the results depend on the processing

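Ccl20 and Steap4 were called in all 17 alternatives. The number of the 10 genes called was 3, 2 with no count filter, 4 with DESeq2 and with non-robust dispersions, and 2 to 4 with each library left out. With the replicate number as a block it was 5, Zc3h12a (log2 change 1.06, edgeR adjusted p = 0.00448) and Lcn2 (3.00, adjusted p = 0.0273) joining, and the count over all genes was 551. Deviations from the group mean correlated at 0.04, 0.06, -0.01 and 0.24 between same-numbered libraries. Between libraries of different number they correlated at -0.24 to 0.23. The labels do not say whether the numbers pair the mice, and these few correlations cannot decide it, so the block is an alternative only. Nfkbiz was not called with no filter (edgeR adjusted p = 0.0599), nor without A20WT mouse 1, 2 or 3. DESeq2 gave no adjusted p for Il17c and Lcn2, and Il17c was not tested under the stricter filter or in either lane alone. Of all genes, 576 were called, 374 under the stricter filter, 1133 with DESeq2 and 348 to 619 with a library left out; the low ends were 348 without A20KIKO mouse 1 and 355 without A20WT mouse 3. With single libraries left out, the log2 change of Il17c ran from -0.56, without A20KIKO mouse 4, to 2.77, against 1.99 over all libraries. Differences near 0 also turned direction, with log2 changes of -0.014 to 0.17 for Il17rc and -0.015 to 0.048 for Traf3ip2. Log2 ratios, A20KIKO minus A20WT, ran from -0.35 to 0.10 for Il17re to Il17ra, -0.13 to 0.025 for Il17rc to Il17re and -0.40 to -0.04 for Il17rc to Il17ra. The cause of these changes was not tested. Genes under about 1 CPM, Il17c among them, are limited by depth.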
